A study of Mus musculus with 12 samples.

Results

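F9 is a mouse teratocarcinoma line whose cells resemble those of the early embryo, and the comparison described here set F9 cells labelled RARaKO (a knockout of Rara, the gene of retinoic acid receptor alpha) against WT F9 cells, both given the ethanol vehicle and no retinoic acid. It was formed by the sample titles and held 6 of the 12 arrays of the series, 3 labelled RARaKO and 3 WT, numbered as sets 2, 3 and 4 in each genotype. The other 6 arrays were of the same genotypes given 1 µM all-trans retinoic acid (atRA). Every cell in the study had also received cycloheximide, a blocker of protein synthesis, at 1 µg/ml from 30 min before the 7.5 h treatment. The vehicle was ethanol at 0.1%, so the vehicle groups were not untreated cells. The labels say neither how Rara was disrupted nor whether the RARaKO cells came from 1 clone or from several. They also do not say whether the sets were separate cultures, so the spread behind the p-values may be a technical one. Genes of the run on chromosome 4 from Tusc1 to Akirin1, where 130 of 220 measured genes passed the test (59.1%), were left out, which leaves 16289 measured genes.

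Retinoic acid receptors are nuclear receptors that sit on DNA as pairs with a retinoid X receptor, at repeats of a short half-site. Without ligand the pair is known to recruit co-repressors, and with ligand it exchanges them for co-activators, so that a gene can depend on the receptor in both states. Known targets include genes of retinoic acid breakdown such as Cyp26a1, the receptor gene Rarb, and Hox genes that give cells their position along the body axis. F9 cells given retinoic acid turn into cells like those of the extraembryonic endoderm.

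Each deposited value is taken as a log2 expression value and is relative to the median of its probe set over the 12 arrays, so it shows differences between arrays and no level. A gene was read from a single probe set, and it was called where the adjusted p of limma, adjusted over all 37600 probe sets, was under 0.05. Differences are RARaKO minus WT on the log2 scale, and the error after ± is the standard error of the fit, with 3 arrays per group. Values of single arrays are given in the order of sets 2, 3 and 4. A difference in such RNA can come from fewer cells of a kind or from less RNA per cell, and the arrays cannot tell these apart.

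On the first principal component of the 6 vehicle arrays, which took 43.96% of their variance, the arrays labelled RARaKO spanned -20.6 to -10.8 and those of WT cells 13.7 to 20.7. The mean of a measure of RNA quality stood apart between the groups too. The mean of the 5′ minus 3′ signal of 4 control transcripts, on the log2 scale, was 0.073, -0.023 and 0.132 in the arrays labelled RARaKO, against -0.090, -0.123 and -0.084 in WT arrays. Of the 4 transcripts Tfrc alone stood apart between the groups, while Actb, Gapdh and Pcx overlapped. The part of this measure in the results below was not tested. All 8 marker genes of F9 cells fell in the highest class of signal and none of them was called. Of the markers of other cell types, none was called for parietal endoderm (7 genes), trophoblast (8), primitive streak mesoderm (6), fibroblasts (8) and neural cells (7), and 1 of 7 was called for visceral endoderm, Amn, which was higher. With the set number as a block, 1 visceral endoderm marker was higher and 1 lower, and 1 neural marker was lower. Fibroblast markers had 0 of 8 genes in the highest class, trophoblast, streak and neural markers 2 each, visceral endoderm markers 3 and parietal endoderm markers 5.

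In vehicle 1131 of 37600 probe sets were called (3.01%), 212 of them in the chromosome 4 run. Outside it 207 genes rose in the arrays labelled RARaKO and 222 fell, which is 429 of 16289 genes (2.63%), with 1.27% higher and 1.36% lower. These are the shares to set beside each count of list members below. List members were chosen with earlier results of these data known, so such counts describe the lists and test none of them. Most of the 429 differences were small, with a median size of 0.43, and 10 genes rose and 4 fell by at least 1 log2 unit. In all 429 genes the 3 arrays labelled RARaKO lay on one side of the 3 WT arrays, which was also so for 23.5% of all genes outside the run. Several probe sets read 227 of the 429 genes, and in 153 of these 227 no other probe set was called. With the set number as a block, which pairs the arrays, 396 genes were higher and 391 lower. Calls below are those of the fit without the block unless it is named, so a gene given as not called may be called with it. Without the array labelled RARaKO of set 3 the counts were 103 and 83, and over the 6 ways of leaving out 1 vehicle array they were 103 to 162 higher and 83 to 147 lower.

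**Figure D1:**
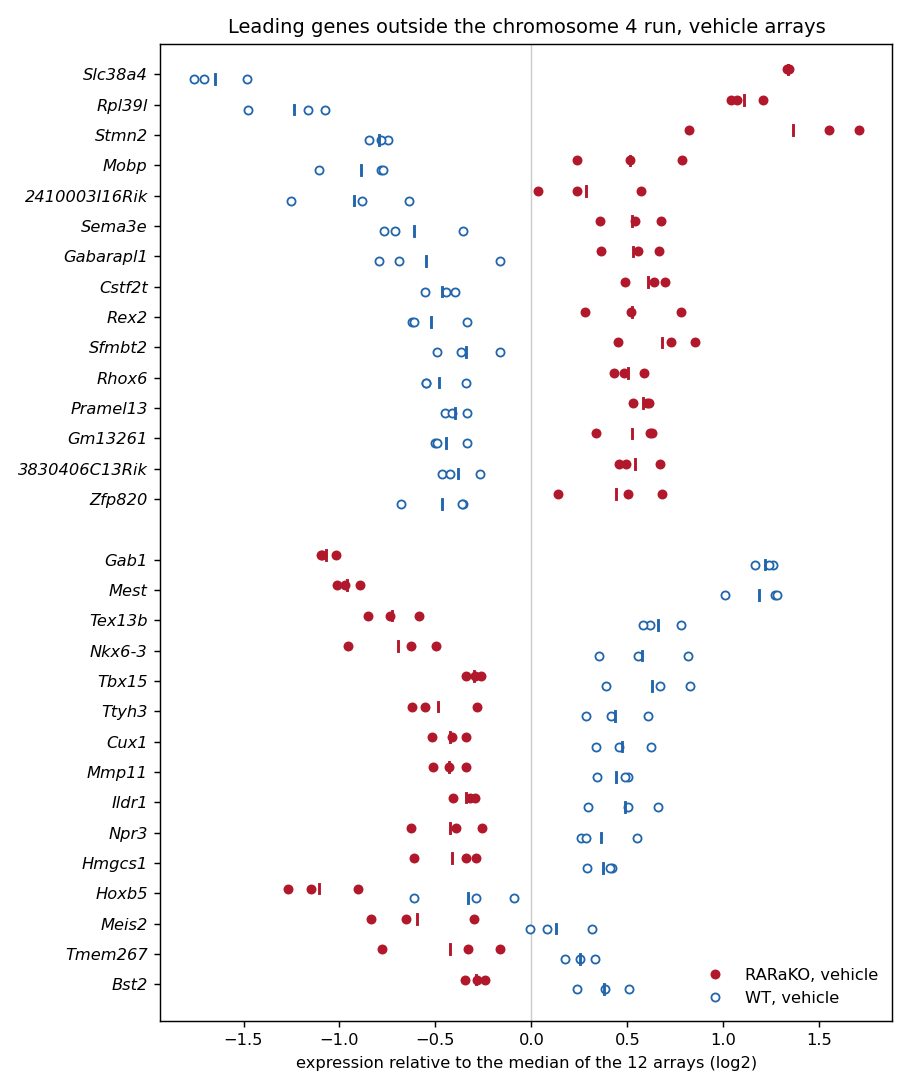
Expression of the 15 genes with the largest called increase (top) and the 15 with the largest called decrease (bottom) in each vehicle array, in log2 relative to the median of the 12 arrays. Filled red points are arrays labelled RARaKO, open blue points are WT arrays, and short bars are group means. The groups do not overlap for any of the 30 genes, which is part of how they were chosen, and Slc38a4 shows the widest gap, 2.99.

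Rara itself was read by 1 probe set. It gave 0.29, 0.32 and 0.30 in the arrays labelled RARaKO, against -0.55, -0.50 and -0.76 in WT arrays, so all 3 arrays labelled RARaKO lay above all WT arrays. The difference was 0.90 ± 0.09 (adjusted p = 1.50e-04), a 1.87-fold higher signal in the cells labelled as knockouts. The probe set may read a part of the transcript outside the disrupted region, or it may go against the label, and these cannot be told apart here. Every direction given below therefore rests on the label RARaKO.

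The other genes of the retinoid receptors moved less. Rarb, whose product is retinoic acid receptor beta and which is itself a target of the pathway, gave -0.56, -0.50 and -0.31 in the arrays labelled RARaKO, against -1.05, -1.01 and -0.94 in WT arrays, with no overlap (0.54 ± 0.09, adjusted p = 0.00394). With quantile normalization the Rarb difference was 0.30 and missed the threshold (adjusted p = 0.1276 by limma). Rarg, the gene of the third retinoic acid receptor, gave -0.06 ± 0.07 (adjusted p = 0.784), and its groups overlapped. Among the partner receptors, Rxra gave -0.09 ± 0.09 (adjusted p = 0.745) and Rxrb -0.16 ± 0.06 (adjusted p = 0.265). Rxrg gave -0.63, -0.45 and -0.23 in the arrays labelled RARaKO, against 0.04, 0.05 and -0.04 in WT arrays. Its arrays did not overlap, but its difference of -0.45 ± 0.12 missed the threshold (adjusted p = 0.0677) and passed it with the set as a block (0.0451) and with quantile normalization (0.0421). Of 31 genes of retinoid and other nuclear receptors 2 were higher, Rara and Rarb, and 1 lower, Nr5a1 (steroidogenic factor 1), at -0.37 ± 0.08. The second probe set of Nr5a1 gave -0.10 and was not called. Leaving out 1 vehicle array at a time, Nr5a1 was called in 2 of 6 fits (adjusted p up to 0.0839, without WT set 2). With the block 3 were higher and 3 lower. Of the list 9.68% was called without the block, against 2.63% of all genes outside the run. The median of the list was -0.04, against -0.02 over all genes outside the run. None of 18 co-repressor and co-activator genes was called by limma, with or without the block, and 3 had an unadjusted p under 0.05. The smallest p belonged to Tbl1x, a co-repressor subunit, at -0.20 ± 0.06 (adjusted p = 0.111).

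Known retinoic acid targets split in both directions. Of 25 measured, 4 were higher (Rara, Rarb, Stra8 and Foxa1) and 4 lower (Hoxb5, Hoxb1, Meis2 and Meis1). That is 32% against 2.63% of all genes outside the run. The list holds Rara itself, and its members were chosen with earlier results of these data known. The share therefore describes the list and is no test. With quantile normalization 3 were higher and 5 lower. Stra8, a gatekeeper of meiosis that retinoic acid induces in germ cells, gave -0.19, -0.38 and -0.08 in the arrays labelled RARaKO, against -0.87, -0.85 and -0.74 in WT arrays. Foxa1, a pioneer factor of endoderm, gave 0.06, -0.14 and -0.14 in the arrays labelled RARaKO, against -0.62, -0.52 and -0.54 in WT arrays. For both genes the arrays labelled RARaKO were all above the WT arrays, by 0.61 ± 0.09 (adjusted p = 0.00327) and 0.48 ± 0.09 (adjusted p = 0.0135).

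Cyp26a1, the gene of a retinoic acid hydroxylase, gave -0.70, -0.73 and -0.82 in the arrays labelled RARaKO, against -0.57, -0.90 and -0.59 in WT arrays. Its arrays overlapped and the difference was -0.06 ± 0.08 (adjusted p = 0.8). With quantile normalization it was -0.27 and not called (adjusted p = 0.1064 by limma). Crabp1, the gene of a cytoplasmic retinoic acid binding protein, gave -0.26 ± 0.17 (adjusted p = 0.524). Among 28 genes of retinoid uptake and metabolism 1 was higher and 1 lower (7.14%, against 2.63% of all genes outside the run). Rdh11, a retinal reductase gene, was higher at 0.49 ± 0.09. Dhrs4, which encodes another retinoid dehydrogenase/reductase, was lower at -0.38 ± 0.06. The second probe set of Rdh11 gave 0.19 and was not called. With 1 vehicle array left out, Foxa1 was called in 4 of 6 fits (adjusted p up to 0.0667, without RARaKO set 2) and Rdh11 in 5 (adjusted p up to 0.0616, without RARaKO set 3).

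As reported, Rarb passed the test and Cyp26a1 did not, while with quantile normalization neither did. The stretches before their starts are shown to set them side by side. Promoters of 250 bases before to 50 bases after a RefSeq gene start (GRCm38.p6) were searched on both strands for a pair of half-sites in the same orientation, 5 bases apart. Each half-site was AGGTCA or its variant AGTTCA, or else GGGTCA or its variant GGTTCA. Such a pair stood in 32 of 32851 windows (0.0974%). Of 12964 measured genes outside the run with such a window 10 held it, and Rarb was the single gene of these that was called. The 250 bases before each start are printed 5′ to 3′ on the strand of the gene, with the pair and its spacer in capitals.
Rarb (minus strand, chr14:16575477-16575726): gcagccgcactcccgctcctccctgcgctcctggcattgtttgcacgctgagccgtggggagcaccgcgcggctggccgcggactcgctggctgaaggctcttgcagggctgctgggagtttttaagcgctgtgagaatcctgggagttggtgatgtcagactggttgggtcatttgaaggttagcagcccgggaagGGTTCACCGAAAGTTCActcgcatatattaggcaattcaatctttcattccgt
Cyp26a1 (plus strand, chr19:37697558-37697807): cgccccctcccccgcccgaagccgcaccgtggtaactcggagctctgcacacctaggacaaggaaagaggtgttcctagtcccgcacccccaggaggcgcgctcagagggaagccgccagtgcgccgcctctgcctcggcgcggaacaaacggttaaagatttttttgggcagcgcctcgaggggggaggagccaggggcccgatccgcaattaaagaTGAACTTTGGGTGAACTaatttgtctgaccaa
The pair lay 53 to 37 bases before the start of Rarb on its own strand, and 32 to 16 bases before that of Cyp26a1 on the opposite strand. Both windows thus hold a repeat with the same spacing, beside a genotype difference of 0.54 for Rarb and of -0.06 for Cyp26a1 (0.30 and -0.27 with quantile normalization). Pairs 2 bases apart stood in 88 windows (0.268%). Of the measured genes outside the run 13 held such a pair, of which Slc45a3 alone was called, higher. Pairs 1 base apart stood in 73 windows (0.222%). They were held by 36 measured genes outside the run, of which Ranbp17 alone was called, lower. A match of letters does not show that a receptor binds there.

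**Figure D2:**
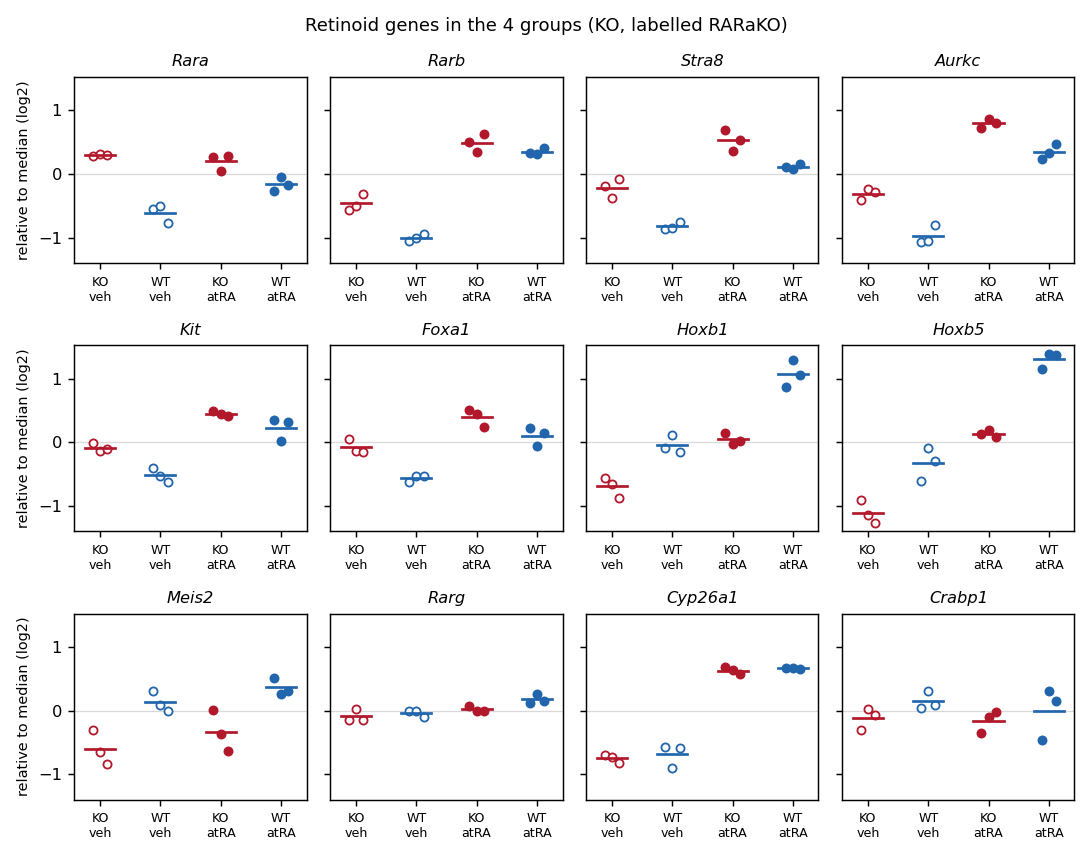
Expression of 12 genes in all 12 arrays, in log2 relative to the median of the 12. Aurkc and Kit come from the germ cell list and belong to none of the retinoid lists. Red is RARaKO (KO) and blue is WT, open points are vehicle arrays and filled points atRA arrays, and bars are group means. Rara, Rarb, Stra8, Aurkc, Kit and Foxa1 lie higher and Hoxb1, Hoxb5 and Meis2 lower in the vehicle arrays labelled RARaKO, while Rarg and Cyp26a1 overlap. Crabp1 was not called in vehicle.

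The responses of WT cells to atRA stand beside these differences, and both comparisons use the WT vehicle arrays, so their agreement is not a result. In WT cells atRA raised Rarb by 1.35, Stra8 by 0.94, Foxa1 by 0.66 and Rara by 0.45, genes that were higher in the vehicle arrays labelled RARaKO. It also raised Hoxb5 by 1.63 and Hoxb1 by 1.11, genes that were lower there. Cyp26a1 rose by 1.38 in cells labelled RARaKO and by 1.35 in WT cells. In all, 32 of the 429 genes were also called in the WT response, where 131 genes outside the run were called (0.804%).

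All called members of the Hox list and of the list of other homeobox and T-box genes were lower. The 3 called Rhox genes, homeobox genes with a list of their own, were higher. Hoxb5 gave -0.91, -1.15 and -1.27 in the arrays labelled RARaKO, against -0.61, -0.09 and -0.29 in WT arrays (-0.78 ± 0.13, adjusted p = 0.00475). Hoxb1 gave -0.56, -0.65 and -0.87 in the arrays labelled RARaKO, against -0.09, 0.12 and -0.15 in WT arrays (-0.65 ± 0.11, adjusted p = 0.00765). Neither gene's groups overlapped. These 2 were the called ones among 30 measured Hox genes (6.67%, against 2.63% of all genes outside the run), whose median was -0.10. With the set as a block 5 Hox genes were lower and none higher. A single Hox gene of the 30 fell in the highest class of signal.

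Of 53 other homeobox and T-box genes, 6 were lower and none higher (11.3% called, against 2.63% of all genes outside the run). With quantile normalization 6 were lower and 1 higher. Nkx6-3, a homeobox gene of the gut, gave -0.63, -0.96 and -0.50 in the arrays labelled RARaKO, against 0.82, 0.35 and 0.56 in WT arrays (-1.27 ± 0.20, adjusted p = 0.00344). Tbx15, a T-box gene of limb and skeletal development, gave -0.29, -0.26 and -0.34 in the arrays labelled RARaKO, against 0.83, 0.39 and 0.67 in WT arrays (-0.93 ± 0.14, adjusted p = 0.00259). Cux1, a cut-like homeobox repressor gene, gave -0.34, -0.42 and -0.52 in the arrays labelled RARaKO, against 0.63, 0.34 and 0.46 in WT arrays (-0.90 ± 0.08, adjusted p = 5.12e-05), so that for each of these 3 genes the arrays labelled RARaKO were all below the WT arrays. Cux1 has 9 probe sets, which ranged from -0.90 to 0.56. Of these, 2 were called lower and 1 higher. The second probe set of Tbx15 gave -0.255 and was not called. Irx2 was lower at -0.46 ± 0.08. Meis2 and Meis1, the genes of homeobox partners of Hox proteins, gave -0.73 ± 0.16 and -0.48 ± 0.11. In the 6 fits that each lacked 1 vehicle array, Meis2 was called in 1 of 6 fits (adjusted p up to 0.115, without RARaKO set 3) and Meis1 in 1 (adjusted p up to 0.121, without WT set 4).

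Imprinted genes, which are expressed from 1 parental copy, held 2 of the 5 largest differences. Slc38a4, the gene of a sodium-coupled amino acid transporter expressed from the paternal copy, gave 1.34, 1.34 and 1.33 in the arrays labelled RARaKO, against -1.76, -1.70 and -1.48 in WT arrays. Mest, a paternally expressed gene of a hydrolase-like protein, gave -0.89, -0.97 and -1.01 in the arrays labelled RARaKO, against 1.01, 1.27 and 1.28 in WT arrays. The arrays labelled RARaKO were thus far above WT for Slc38a4 (2.99 ± 0.16, 7.92-fold, adjusted p = 1.11e-06) and far below it for Mest (-2.14 ± 0.11, 4.42-fold lower, adjusted p = 6.73e-07). Both probe sets of Slc38a4 were called, and Mest had 1.

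Sfmbt2, a paternally expressed Polycomb-related gene, gave 0.73, 0.86 and 0.45 in the arrays labelled RARaKO, against -0.16, -0.49 and -0.37 in WT arrays (1.02 ± 0.17, adjusted p = 0.00545). Its second probe set gave 0.14 and was not called. Grb10, the gene of an adaptor that restrains insulin and growth factor signalling, gave -0.25, -0.06 and -0.12 in the arrays labelled RARaKO, against 0.39, 0.41 and 0.28 in WT arrays (-0.51 ± 0.08, adjusted p = 0.00334), and 1 of its 3 probe sets was called. Igf2, the gene of a fetal growth factor, was lower at -0.35 ± 0.07, and Inpp5f at -0.35 ± 0.06. The other probe set of Igf2 gave 0.21, in the opposite direction, and was not called. The other probe sets of Inpp5f gave 0.03 and -0.115 and were not called either. In all, 4 of 56 imprinted genes rose (Slc38a4, Sfmbt2, Mkrn3 and Peg12) and 4 fell (Mest, Grb10, Inpp5f and Igf2). That is 14.3%, against 2.63% of all genes outside the run, and the median of the list was -0.004. Across the fits lacking 1 vehicle array, Inpp5f was called in 5 of 6 fits (adjusted p up to 0.0537, without RARaKO set 2) and Igf2 in 2 (adjusted p up to 0.0975, without RARaKO set 2).

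Of 56 germ cell genes 9 rose and 1 fell, and the list's median was 0.07. That is 17.9% called, against 2.63% of all genes outside the run. With the set as a block 9 were higher and 3 lower, and with quantile normalization 7 were higher and 1 lower. In atRA 7 were higher and 3 lower. Rpl39l, the gene of a ribosomal protein variant of the testis, gave 1.21, 1.04 and 1.07 in the arrays labelled RARaKO, against -1.08, -1.48 and -1.16 in WT arrays (2.34 ± 0.11, 5.08-fold higher, adjusted p = 1.65e-07). It was the only one called of 46 ribosomal protein genes, whose median was -0.01. Tex13b, an X-linked gene expressed in testis, moved the other way and gave -0.58, -0.74 and -0.85 in the arrays labelled RARaKO, against 0.62, 0.78 and 0.58 in WT arrays (-1.39 ± 0.08, adjusted p = 1.50e-06).

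Aurkc, the gene of a meiotic aurora kinase, gave -0.40, -0.24 and -0.29 in the arrays labelled RARaKO, against -1.07, -1.05 and -0.80 in WT arrays (0.67 ± 0.09, adjusted p = 0.00106). With quantile normalization Aurkc gave 0.46 and missed the threshold (adjusted p = 0.0903 by limma). Syce1, whose product is part of the synaptonemal complex that joins chromosomes in meiosis, gave 0.34, 0.57 and 0.37 in the arrays labelled RARaKO, against -0.14, -0.28 and -0.15 in WT arrays (0.62 ± 0.09, adjusted p = 0.00310). Sohlh2, a germ cell transcription factor gene, gave 0.23, 0.39 and 0.22 in the arrays labelled RARaKO, against -0.46, -0.34 and -0.20 in WT arrays (0.62 ± 0.09, adjusted p = 0.00190). In each the groups did not overlap, and each call held without any single vehicle array. The remaining members called higher were Stra8, Tex19.1, Dazl, Stk31 and Kit. Only 16 of the 56 members fell in the highest class of signal.

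Rhox genes form an X-linked cluster of homeobox genes expressed in germ cells and placenta. Of 14 listed, 4 were measured, and the median of these 4 was 0.60. Of the 4, 3 were higher (75%, against 2.63% of all genes outside the run). The remaining measured gene gave -0.19 and was not called. Its arrays labelled RARaKO were all below the WT arrays, and its unadjusted p by limma was under 0.05. Rhox6 gave 0.43, 0.59 and 0.48 in the arrays labelled RARaKO, against -0.55, -0.55 and -0.34 in WT arrays (0.98 ± 0.07, adjusted p = 1.55e-05). Rhox9 gave 0.27, 0.43 and 0.43 in the arrays labelled RARaKO, against -0.33, -0.51 and -0.32 in WT arrays (0.76 ± 0.13, adjusted p = 0.00644), while Rhox13 was nearer to the threshold at 0.44 ± 0.11 (adjusted p = 0.0473). When 1 vehicle array was dropped, Rhox13 was called in none of 6 fits (adjusted p up to 0.154, without WT set 4). On chromosome X 20 genes were higher and 9 lower of 531 (5.46%), while the shares of the autosomes outside the run lay between 1.41% and 4.11%.

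The largest decrease was that of Gab1, the gene of a docking protein that links receptor tyrosine kinases to ERK and PI3 kinase signalling. It gave -1.09, -1.10 and -1.02 in the arrays labelled RARaKO, against 1.26, 1.16 and 1.24 in WT arrays. The arrays of each group lay close together, and the difference between groups was -2.29 ± 0.07 (4.89-fold lower, adjusted p = 3.24e-09). All 3 of its probe sets were called lower, between -2.30 and -1.93.

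Of 68 genes of receptor tyrosine kinase and ERK signalling 3 were lower and 2 higher. That is 7.35%, against 2.63% of all genes outside the run. Fgfr4, a fibroblast growth factor receptor gene, gave -0.40 ± 0.07 (adjusted p = 0.00690) and was called by 1 of 5 probe sets. Egr1, an early response gene of ERK signalling, gave -0.31, -0.06 and -0.40 in the arrays labelled RARaKO, against 0.35, 0.05 and 0.58 in WT arrays, and the groups came closest in set 3. Dusp5, the gene of an ERK phosphatase, was higher at 0.42 ± 0.07 (adjusted p = 0.00346), and so was Kit, the stem cell factor receptor gene, at 0.43 ± 0.09. If 1 vehicle array was left out, Egr1 was called in 2 of 6 fits (adjusted p up to 0.155, without WT set 4) and Kit in 1 (adjusted p up to 0.105, without WT set 4). With quantile normalization Kit missed the threshold (adjusted p = 0.0640 by limma). The second probe set of Kit gave 0.30 and was not called. The transforming growth factor and Wnt lists held no called gene, 0 of 45 and 0 of 51; with the block 1 and 0 were called. Before adjustment 9 and 10 of their members had a p under 0.05.

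Neuronal and glial genes were called in both directions, 4 higher and 2 lower of 33 (18.2%, against 2.63% of all genes outside the run). Stmn2, which encodes a destabiliser of microtubules in growing axons, gave 1.55, 1.71 and 0.82 in the arrays labelled RARaKO, against -0.75, -0.85 and -0.78 in WT arrays. The array labelled RARaKO of set 4 was the lowest of its group and still far above every WT array (2.15 ± 0.23, 4.45-fold higher, adjusted p = 2.14e-04). Mobp, a myelin protein gene, gave 0.79, 0.24 and 0.51 in the arrays labelled RARaKO, against -0.79, -1.11 and -0.78 in WT arrays (1.40 ± 0.18, adjusted p = 9.38e-04), and 4 of its 5 probe sets were called higher.

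Tubb3, a neuronal tubulin gene, was higher at 0.65 ± 0.14 and Nefh, a neurofilament gene, at 0.60 ± 0.12. Gap43, of growth cones, was lower at -0.29 ± 0.06 and Dcx, which encodes the microtubule binding protein doublecortin, at -0.41 ± 0.10. The other probe sets of Dcx gave -0.20, -0.10 and 0.02 and were not called. Leaving out 1 vehicle array at a time, Nefh was called in 2 of 6 fits (adjusted p up to 0.0844, without RARaKO set 3), Gap43 in 1 (adjusted p up to 0.0801, without RARaKO set 2), Tubb3 in 2 (adjusted p up to 0.0930, without WT set 2) and Dcx in 2 (adjusted p up to 0.162, without RARaKO set 2). With the block 6 were higher and 3 lower. Of 7 markers of neural cells in a separate list none was called without the block, and 1 was lower with it.

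Guidance genes gave 3 called members of 60, all higher (5%, against 2.63% of all genes outside the run). Sema3e, the gene of a secreted semaphorin that guides axons and vessels, gave 0.54, 0.68 and 0.36 in the arrays labelled RARaKO, against -0.77, -0.36 and -0.71 in WT arrays (1.14 ± 0.13, adjusted p = 3.68e-04), and all 4 of its probe sets were called higher. Plxna2, a semaphorin receptor gene, gave 0.54 ± 0.13 and Robo1, a Slit receptor gene, 0.49 ± 0.11. The other probe sets of Plxna2 gave 0.02, 0.215 and 0.06 and those of Robo1 -0.07 and 0.07. None of them was called. With 1 vehicle array left out, Plxna2 was called in 1 of 6 fits (adjusted p up to 0.182, without WT set 4) and Robo1 in 1 (adjusted p up to 0.105, without WT set 4). With the block 3 guidance genes were higher and 3 lower.

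**Figure D3:**
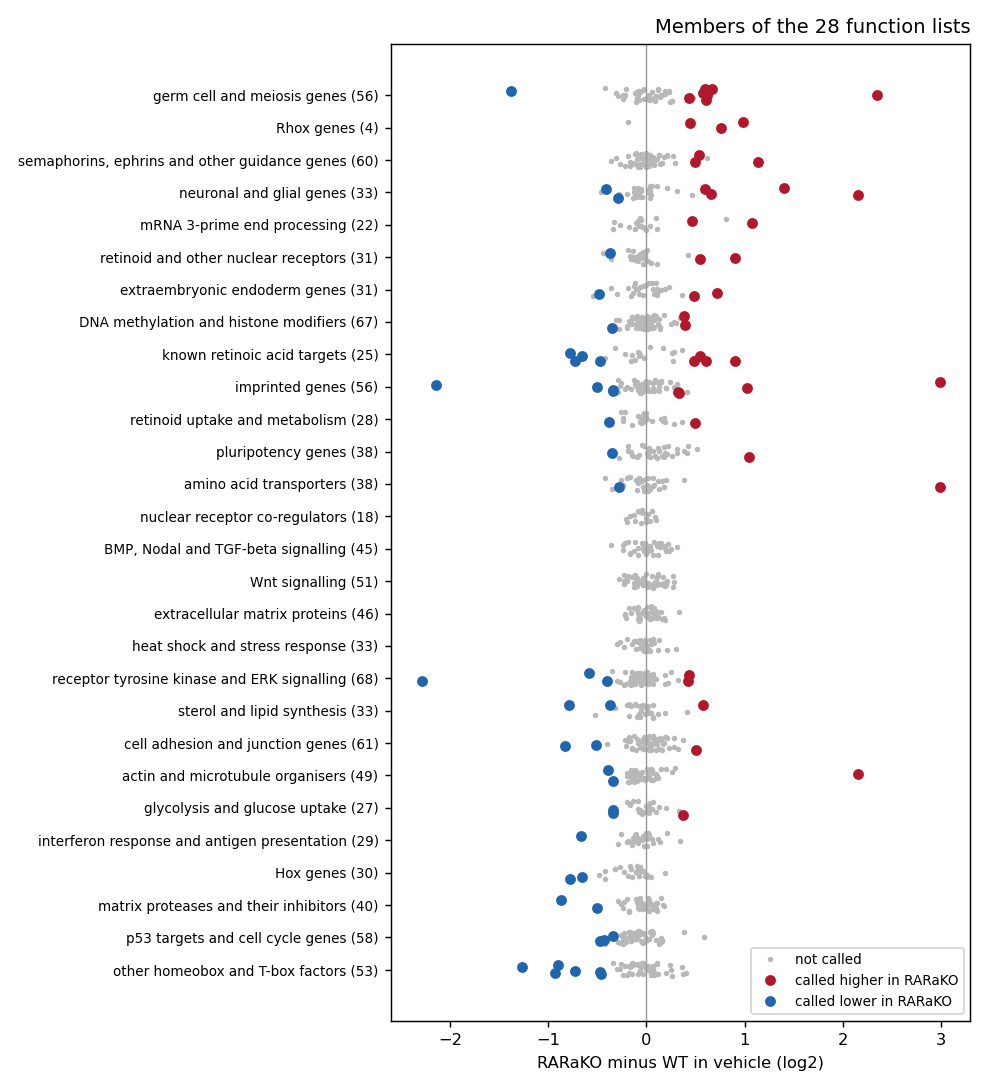
Difference between the arrays labelled RARaKO and WT arrays in vehicle, in log2, for each measured member of the 28 function lists, with the number of members in brackets. Red points are called higher, blue points called lower and grey points not called, and lists run from most called higher to most called lower. Germ cell genes have 9 members called higher and 1 lower. In the list of other homeobox and T-box factors the 6 called members are all lower. The 3 called Rhox genes, homeobox genes with a list of their own, are all higher.

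Of 58 p53 and cell cycle genes 3 were called, all of them lower (5.17%, against 2.63% of all genes outside the run). Cdkn1a, the gene of the inhibitor p21, gave -0.25, -0.21 and -0.21 in the arrays labelled RARaKO, against 0.22, 0.18 and 0.23 in WT arrays (-0.43 ± 0.06, adjusted p = 0.00132), and the other of its 2 probe sets gave 0.08 and was not called. Rb1, the retinoblastoma gene, gave -0.47 ± 0.10 and Perp, a p53 target gene, -0.34 ± 0.08. The second probe set of Rb1 gave 0.15, in the opposite direction, and was not called. Perp missed the threshold with array-median centring and with quantile normalization (adjusted p = 0.0541 and 0.0536 by limma). Cdkn1a, Rb1 and Perp were the 3 called of 58, none was higher, and the list's median was -0.10, against -0.02 for all genes. In the 6 fits that each lacked 1 vehicle array, Rb1 was called in 2 of 6 fits (adjusted p up to 0.0973, without WT set 3) and Perp in 1 (adjusted p up to 0.141, without RARaKO set 3). With the block 5 were lower and 1 higher.

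Chromatin genes were called at 4.48%, against 2.63% of all genes outside the run, with 2 higher and 1 lower of 67. Kdm2b, which encodes a histone demethylase of a Polycomb complex, was lower at -0.35 ± 0.06 (adjusted p = 0.00733). Chd7, a chromatin remodeller gene, was higher at 0.40 ± 0.08, and Suv39h2, a gene of a histone H3 lysine methyltransferase, at 0.38 ± 0.09. The other probe sets of Suv39h2 gave 0.15 and -0.09, that of Kdm2b -0.18 and that of Chd7 0.21. None of them was called. Across the fits lacking 1 vehicle array, Chd7 was called in 3 of 6 fits (adjusted p up to 0.0756, without WT set 4) and Suv39h2 in 1 (adjusted p up to 0.139, without WT set 4). With the block 3 were higher and 2 lower.

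Pluripotency genes were mostly not called, 1 higher and 1 lower of 38 (5.26%, against 2.63% of all genes outside the run). Of the 38, 36 fell in the highest class of signal. Rex2, a zinc finger gene that lies on chromosome 4 outside the run, gave 0.78, 0.52 and 0.28 in the arrays labelled RARaKO, against -0.34, -0.62 and -0.61 in WT arrays (1.05 ± 0.15, adjusted p = 0.00252). Myc, the growth-promoting transcription factor gene, was lower at -0.35 ± 0.07 (adjusted p = 0.0224). When 1 vehicle array was dropped, Myc was called in 1 of 6 fits (adjusted p up to 0.0827, without WT set 2). Of 31 extraembryonic endoderm genes Amn, a gene of nutrient uptake in visceral endoderm, was higher at 0.72 ± 0.17, as was Foxa1, and Hhex, a homeobox gene, was lower at -0.48 ± 0.11. If 1 vehicle array was left out, Amn was called in 1 of 6 fits (adjusted p up to 0.132, without WT set 3) and Hhex in 1 (adjusted p up to 0.124, without RARaKO set 3). The called members were 9.68% of the endoderm list, against 2.63% of all genes outside the run. This list held 2 higher and 3 lower with the block, and between 0 and 2 called members without 1 vehicle array.

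In lipid metabolism, Hmgcs1, which encodes the enzyme that makes HMG-CoA for sterols, gave -0.29, -0.61 and -0.34 in the arrays labelled RARaKO, against 0.42, 0.41 and 0.29 in WT arrays (-0.79 ± 0.12, adjusted p = 0.00324), and all 4 of its probe sets were called lower. Abcg1, a sterol exporter gene, gave 0.34, 0.47 and 0.23 in the arrays labelled RARaKO, against -0.19, -0.36 and -0.16 in WT arrays (0.58 ± 0.08, adjusted p = 0.00150). The groups of both genes were apart, in opposite directions. The second probe set of Abcg1 gave 0.17 and was not called. Scd1, a fatty acid desaturase gene, was lower at -0.38 ± 0.09. That makes 1 higher and 2 lower of 33 (9.09%, against 2.63% of all genes outside the run). The second probe set of Scd1 gave 0.15, in the opposite direction, and was not called. With array-median centring Scd1 missed the threshold (adjusted p = 0.0535 by limma). Leaving out 1 vehicle array at a time, Scd1 was called in none of 6 fits (adjusted p up to 0.18, without RARaKO set 3).

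Of 38 amino acid transporter genes Slc38a4 rose and Slc7a5 fell (5.26%, against 2.63% of all genes outside the run). Slc7a5, the gene of a transporter of leucine and other large neutral amino acids, gave -0.28 ± 0.06. With the block 2 genes of this list were higher and 3 lower. With 1 vehicle array left out, Slc7a5 was called in 1 of 6 fits (adjusted p up to 0.147, without RARaKO set 3). Glycolysis genes gave 1 higher and 2 lower of 27 (11.1%, against 2.63% of all genes outside the run). These were Ldhb, a lactate dehydrogenase gene, at 0.38 ± 0.08 with all 4 probe sets called, against Pfkm, a phosphofructokinase gene, at -0.34 ± 0.06, and Eno3, an enolase gene, at -0.34 ± 0.08. In the 6 fits that each lacked 1 vehicle array, Ldhb was called in 2 of 6 fits (adjusted p up to 0.103, without RARaKO set 3) and Eno3 in none (adjusted p up to 0.161, without WT set 4). Gabarapl1, a gene of autophagosome formation, gave 0.36, 0.56 and 0.67 in the arrays labelled RARaKO, against -0.16, -0.69 and -0.79 in WT arrays (1.08 ± 0.17, adjusted p = 0.00334).

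Adhesion genes had 1 called higher and 2 lower of 61 (4.92%), and the list of matrix proteases and their inhibitors 2 lower of 40 (5%). Of all genes outside the run 2.63% were called. The medians of the 2 lists were 0.03 and -0.04. Mmp11, the gene of the matrix protease stromelysin-3, gave -0.43, -0.51 and -0.34 in the arrays labelled RARaKO, against 0.50, 0.34 and 0.49 in WT arrays (-0.87 ± 0.08, adjusted p = 5.66e-05). Ildr1, a gene of tricellular junctions, gave -0.30, -0.41 and -0.32 in the arrays labelled RARaKO, against 0.66, 0.30 and 0.50 in WT arrays (-0.83 ± 0.09, adjusted p = 2.65e-04). In both genes all arrays labelled RARaKO were below all WT arrays. Cdh2, the N-cadherin gene, was lower at -0.51 ± 0.10, and Pkp4, a gene of a junction protein, higher at 0.51 ± 0.11, so 1 of 61 adhesion genes was higher and 2 lower. The second probe set of Pkp4 gave 0.03 and was not called. Across the fits lacking 1 vehicle array, Cdh2 was called in 2 of 6 fits (adjusted p up to 0.0695, without RARaKO set 3) and Pkp4 in 1 (adjusted p up to 0.135, without RARaKO set 3).

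Adam23, of an integrin-binding surface protein, was lower at -0.51 ± 0.11. With Mmp11 it made up the 2 called of 40 genes in the list of matrix proteases and their inhibitors. Another probe set of Adam23 gave -0.46 and was called lower, and a further one gave 0.03 and was not called. When 1 vehicle array was dropped, Adam23 was called in 3 of 6 fits (adjusted p up to 0.0970, without RARaKO set 2). Msn, which encodes moesin, a link of actin to the membrane, gave -0.39 ± 0.07 and Tpm4, a tropomyosin gene, -0.34 ± 0.07. Both were lower and Stmn2 higher among 49 organisers of actin and microtubules (6.12%, against 2.63% of all genes outside the run). If 1 vehicle array was left out, Msn was called in 5 of 6 fits (adjusted p up to 0.0502, without RARaKO set 3) and Tpm4 in 1 (adjusted p up to 0.0824, without RARaKO set 3). None of 46 extracellular matrix genes was called by limma, with or without the block, and 2 had an unadjusted p under 0.05. Lamb2, a laminin gene with the smallest p of that list, gave -0.22 ± 0.08 (adjusted p = 0.191).

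In mRNA 3′ end processing 2 of 22 genes were higher (9.09%, against 2.63% of all genes outside the run). Cstf2t, which encodes a testis form of a cleavage stimulation factor, gave 0.69, 0.64 and 0.49 in the arrays labelled RARaKO, against -0.40, -0.56 and -0.45 in WT arrays (1.07 ± 0.08, adjusted p = 1.98e-05). Cpsf2, of the cleavage and polyadenylation complex, gave 0.46 ± 0.11 (adjusted p = 0.0483), while its other 2 probe sets gave -0.12 and -0.22 and were not called. Leaving out 1 vehicle array at a time, Cpsf2 was called in none of 6 fits (adjusted p up to 0.187, without RARaKO set 3). With the block 3 were higher and 1 lower.

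Bst2, the gene of tetherin, which holds viruses at the cell surface, was the 1 called of 29 interferon response genes (3.45%). Of all genes outside the run 2.63% were called. Bst2 gave -0.28, -0.24 and -0.35 in the arrays labelled RARaKO, against 0.51, 0.24 and 0.39 in WT arrays (-0.67 ± 0.07, adjusted p = 2.60e-04). None of 33 heat shock and stress genes was called, 5 passed at an unadjusted p under 0.05, and with the block 1 was higher, Hspa2 (0.30 ± 0.08, adjusted p = 0.0248 with the block), and 1 lower, Nqo1 (-0.30 ± 0.07, adjusted p = 0.0405 with the block).

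Further leading genes belong to none of the lists. Pramel13, of a family expressed in germ cells and early embryos and on chromosome 4 outside the run, gave 0.61, 0.61 and 0.53 in the arrays labelled RARaKO, against -0.33, -0.45 and -0.41 in WT arrays (0.98 ± 0.07, adjusted p = 1.36e-05). Zfp820, a zinc finger gene, gave 0.91 ± 0.17. With 1 vehicle array left out, Zfp820 was called in 3 of 6 fits (adjusted p up to 0.0630, without RARaKO set 2). The genes 2410003I16Rik, Gm13261 and 3830406C13Rik, to which no role is given here, were higher at 1.21 ± 0.20, 0.97 ± 0.10 and 0.93 ± 0.08. Ttyh3, of a family of chloride channel proteins, was lower at -0.92 ± 0.12, and Npr3, the clearance receptor gene of natriuretic peptides, at -0.79 ± 0.11. Tmem267, whose role is not given here, gave -0.68 ± 0.14. In the 6 fits that each lacked 1 vehicle array, Tmem267 was called in 1 of 6 fits (adjusted p up to 0.0841, without WT set 3).

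Over the 28 function lists, 75 of 1075 measured members were called (2.63% of all genes outside the run were), 37 higher and 38 lower, and 5 lists held none. With the block 111 were called, and without 1 vehicle array between 49 and 55; the lowest count came without the WT array of set 3. Members were chosen with earlier results of these data known, so the counts describe the lists and test none of them.

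The same genotype difference was measured in the 6 atRA arrays, which share no array with the vehicle comparison but share its estimate of the spread. In atRA 156 genes outside the run were higher and 290 lower, 446 of 16289 (2.74%, with 0.958% higher and 1.78% lower). Of the 429 genes called in vehicle 427 had the same sign in atRA, as did 70.5% of all genes outside the run. Of these 429 genes 247 (57.6%) were also called in the same direction in atRA, 100 of the 207 higher and 147 of the 222 lower, and none in the opposite direction. The 247 are 55.4% of the genes called in atRA. When each comparison was fitted on its own 6 arrays, 186 genes were called in atRA and 380 in vehicle, with 125 in both in the same direction.

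Gab1 gave -2.28 in atRA, Mest -2.11 and Slc38a4 3.07, each within 0.1 of its difference in vehicle. The 207 genes called higher had a median of 0.38 in atRA and 0.49 in vehicle, and the 222 lower ones -0.37 in atRA and -0.39 in vehicle; they were chosen on the vehicle arrays. Rara was 0.36 in atRA, against 0.90 in vehicle, and Rarb 0.14 against 0.54. The test of these changes between vehicle and atRA (interaction term, limma) called 0 of 37600 probe sets, with 1168 at an unadjusted p under 0.05 (3.11%), Rara (-0.55, unadjusted p = 8.13e-04) and Rarb (-0.40, unadjusted p = 0.00581) among them. Hoxb5 (-1.17) and Hmgcs1 (-1.06) were further from WT in atRA, and the change passed no threshold after adjustment.

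**Figure D4:**
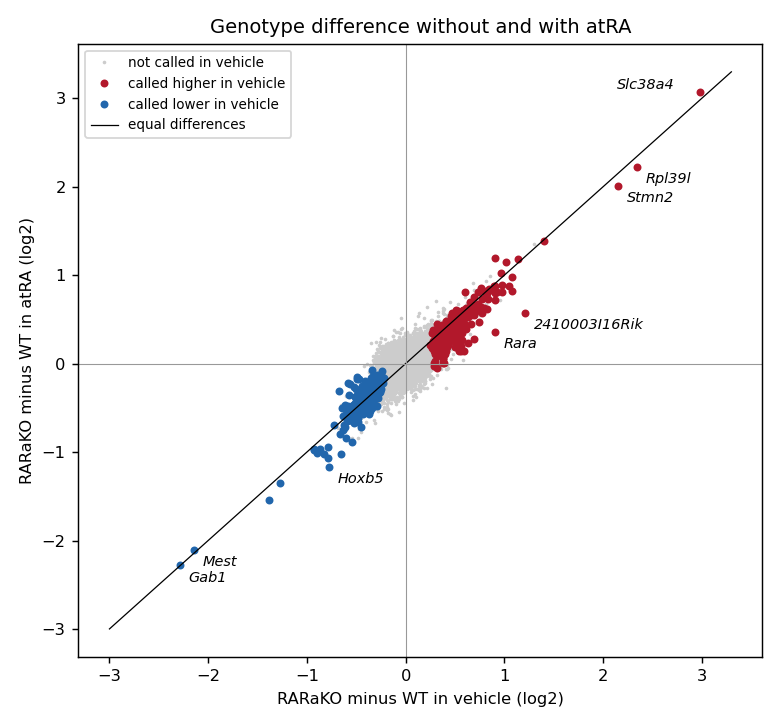
Difference between RARaKO and WT arrays in atRA (vertical axis) against that in vehicle (horizontal axis), in log2, for the 16289 genes outside the run. Red and blue points are the 207 genes called higher and the 222 called lower in vehicle, grey points are not called, and the line marks equal differences. The leading genes Slc38a4, Rpl39l, Stmn2, Gab1 and Mest lie close to the line, and Rara lies below it, at 0.90 in vehicle and 0.36 in atRA.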

How the data were processed

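Expression in the 12 arrays was taken from the deposited table. Per the submitters' processing notes the authors used GCRMA, with no version given, and the values, taken as log2, were found to be centred, with the median of every probe set over the 12 arrays at 0. The log base and the genome build are not given in the sources used here. A coarse class of the lost signal (highest: at least 8) came from the precision of the deposited values. Of 37661 probe sets 61 controls were left out. Symbols came from the platform annotation: 30488 probe sets had 1 symbol, 784 several and 6328 none, for 16509 genes, of which 16385 matched RefSeq (GRCm38.p6), whose gene order placed the chromosome 4 run of 220 genes.

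Limma 3.58.1 in R 4.3.3 (lmFit, eBayes) was fitted to all 12 arrays with 1 mean per group and without the set as a block. Tests were two-sided, with Benjamini-Hochberg adjustment over 37600 probe sets. The scripts were tested on simulated data. Where a gene had several probe sets, the 1 with the highest class stood for it, then the least ambiguous suffix, then the lowest identifier. Named genes were the 15 largest called increases and 15 largest decreases with arrays apart, up to 6 called members per function list (2 of smallest p where none was called), and Rara, Rarb, Rarg, Rxra, Rxrb, Rxrg, Cyp26a1 and Crabp1. Members and lists were chosen with earlier results of these data known. Deviations of same-numbered vehicle arrays from their group means correlated at 0.137, 0.116 and 0.238 in sets 2, 3 and 4. In the fit with a block the set number, which the sample titles give, was therefore taken to pair them. That a shared number pairs arrays was read from these correlations, as the titles do not state it. Unless the block is named, calls, errors and adjusted p come from the fit without it, which leaves the pairing out. The alternatives were this block, the 6 arrays alone, array weights, other scalings, other choices of probe set, and leaving out arrays.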

Additional observations from a re-analysis of the deposited data

How the results depend on the processing

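Called probe sets numbered 1131 in vehicle, 1173 in atRA and 722 in both, for 207 genes higher and 222 lower in vehicle and 75 list members, and the test of the change between vehicle and atRA called 0 under every setting run. With the set number as a replicate block, the paired fit, the counts were 1972, 2344 and 1342 probe sets and 396 and 391 genes, and none of the 79 named calls was lost. Array weights gave 2071 probe sets in vehicle and 412 and 453 genes, with no named call lost. The 6 arrays of each comparison alone gave 592 probe sets in atRA and 430 in both and lost 7 named calls; with the block added they lost 8. Averaging a gene's probe sets gave 311 genes higher and lost 15 named calls. Other counts stayed within 1.5 times of the reported ones with array-median centring, quantile normalization, robust variance, and the highest class only. Leaving out 1 array gave 545 to 859 probe sets in vehicle, 532 to 1124 in atRA and 430 to 689 in both, 103 to 162 genes higher, 83 to 147 lower and 49 to 55 list members. It lost 22 to 28 named calls where the array was a vehicle one. Without a whole set the ranges were 217 to 653, 320 to 335, 169 to 259, 29 to 133, 29 to 43 and 20 to 42, and 35, 57 and 50 named calls were lost without sets 2, 3 and 4. These fits hold fewer arrays. Named differences changed sign in 2 cases, both in uncalled genes. Tbl1x was 0.114 when its probe sets were averaged, and Cyp26a1 ranged from -0.179 to 0.023 without a whole set, with the positive value without replicate 4, and was -0.269 with quantile normalization. That normalization ended the calls of Rarb, Aurkc, Kit and Perp and added those of Nqo1, Hspa2 and Rxrg, and array-median centring ended those of Perp and Scd1. The cause was not tested. Leaving out single atRA arrays, and the 6 arrays alone with the block, were chosen after seeing the data. With 3 arrays per group the median standard error of a difference was 0.0879, and with no levels a gene silent in both genotypes cannot be told from a gene expressed equally in both.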

Other observations

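Further gene groups were described after the called genes had been seen, so their counts and medians carry no test. Zinc finger genes named Zfp or Zkscan, together with Rex2, had 332 measured members outside the chromosome 4 run, of which 21 were higher and 3 lower in the arrays labelled RARaKO (7.23% called, against 2.63% of all genes outside the run). Their median difference in vehicle was 0.07, and 66.3% of them lay above 0, while the median of all genes was -0.02. In the atRA arrays 13 were higher and 3 lower, with a median of 0.05. Zfp560 gave 0.56, 0.44 and 0.33 in the arrays labelled RARaKO, against -0.28, -0.25 and -0.22 in WT arrays. Zfp612 gave 0.25, 0.27 and 0.23 in the arrays labelled RARaKO, against -0.15, -0.15 and -0.18 in WT arrays. Neither gene's groups overlapped. Without 1 vehicle array the zinc finger counts were 8 to 15 higher and 0 to 2 lower, and with the set as a block they were 30 and 5.

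Families expressed in germ cells and in some tumours (Mage, Pramel, Nlrp, Tex, Rhox, Taf7l, Tcp11 and Zp genes, part of which are in the germ cell and Rhox lists) had 14 members higher and 1 lower of 63 (23.8% called, against 2.63% of all genes outside the run). Their median difference was 0.03, and 55.6% of them lay above 0. Mageb16, of the Mage family, gave 0.61, 0.47 and 0.62 in the arrays labelled RARaKO, against -0.26, -0.29 and -0.19 in WT arrays. Zp3, the gene of an egg coat protein, gave 0.14, 0.28 and 0.16 in the arrays labelled RARaKO, against -0.38, -0.53 and -0.35 in WT arrays. In both the arrays labelled RARaKO were all above the WT arrays. In atRA 9 members were higher and 1 lower. Without 1 vehicle array 8 to 11 were higher and 1 was lower in vehicle.

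Lysosomal enzymes and membrane proteins ran the other way, with 8 of 65 genes lower and 2 higher in vehicle (12.3% and 3.08%, against 1.36% and 1.27% of all genes outside the run) and a median of -0.11, and with 9 lower and 1 higher in atRA. Sumf1, whose product activates sulfatases, was -0.35, -0.40 and -0.19 in the arrays labelled RARaKO, against 0.40, 0.27 and 0.29 in WT arrays. Tpp1, a lysosomal peptidase gene, was -0.25, -0.19 and -0.09 in the arrays labelled RARaKO, against 0.43, 0.28 and 0.42 in WT arrays. Manba, the gene of beta-mannosidase, was higher, at 0.58 ± 0.10. Subunits of the vacuolar ATPase, which acidifies lysosomes, had 3 members lower (Atp6v1c1, Atp6v1a and Atp6v1g1) and 1 higher (Atp6v0e2) of 21 (19% called), with a median of -0.13. The signs of these 4 medians were the same with array-median centring and quantile normalization. Without 1 vehicle array 2 to 7 lysosomal genes were lower and 1 to 2 higher, and 0 to 2 subunits of the ATPase were lower and 1 higher. The mean 5′ minus 3′ signal of the control transcripts differs between the same vehicle groups, and its part in these shifts was not tested.

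Some called genes are neighbours among the measured genes of the RefSeq order. On chromosome 13 a stretch of 4 was lower: Nnt, Paip1, 4833420G17Rik and Tmem267. On chromosome X Rhox6, Rhox9 and Rhox13 were higher. Pairs that were higher together included Gm13261 and Sfmbt2, Mkrn3 and Peg12, Cnnm1 and Got1, and Entpd7 and Cox15, and pairs that were lower together included Mmp11 and Chchd10, Myc and Pvt1, and Plvap and Bst2.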
